A study of Mus musculus with 4 samples.

Results

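The genes described here are the named antisense genes of the mouse hippocampus: 150 genes whose symbol is that of another gene with "os" (opposite strand) or "os" and digits added. Of the 32285 genes in the deposited tables, 322 had such a symbol, and 296 of these had their sense partner in the tables too. The 150 were those with at least 100 unique molecular identifiers (UMIs, counts of captured RNA molecules) over all barcodes of 4 libraries, so they were chosen by a measured value, their total UMI count. Of the other 146, 18 had no UMI at all. Fgf2os (102 UMIs) and Bach2os (105) lay just inside the minimum, and Med9os (99) and Foxo6os (96) just outside it. The 150 genes had 137 different partners, since 11 partners had more than 1 antisense gene.

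Nuclei came from the hippocampus of female C57BL/6J mice aged 8 weeks at the start, and RNA was counted per nucleus by single-nucleus RNA sequencing. The mice were WT or carried the APPNL-G-F knock-in, which puts human amyloid sequence and familial Alzheimer mutations into the mouse App gene. They were kept without exercise or with exercise, a running wheel used at will, for 10 weeks. Each of the 4 groups had 1 library and the number of mice in it is not stated, so no difference below has a replicate check, no test was made, and every interval covers counting error only. The housing protocol in the labels names a wheel for all samples, and the groups follow the titles.

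An antisense gene is read from the other DNA strand of the region of its partner. Some start next to the partner's start, in a shared bidirectional promoter. Others start deep inside the partner and run against it, or run into it from beyond its end. Most are long noncoding RNAs, and some are known to change how the partner is read, while for many no role is known. Emx2os, Dlx6os1 and Prox1os lie at genes for transcription factors of brain development. Cdr1os spans the locus of a circular RNA that is abundant in neurons. Its count is that of the gene record, and linear and circular RNA were not told apart in it.

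The GENCODE M21 annotation of the mm10 build held all 150 genes, and all 150 lay on the strand opposite to their partner. It calls 126 of them antisense, 8 lincRNA, 5 processed transcript and 3 bidirectional promoter lncRNA, while 8 are protein-coding, Slc7a6os, Wdr83os and Brd3os among them, so the name does not always mean a noncoding RNA. In 68 pairs 1 gene lay whole inside the other. In 46 pairs the starts were at most 1000 bases apart (median 270.5), on opposite strands, with at most their first parts overlapping. In 12 the 5′ parts overlapped with starts further apart, and in 16 the 3′ ends overlapped. The other 8, called pairs with no overlap below, did not overlap and had starts over 1000 bases apart. Some pairs with neighbouring starts did not overlap either. The gene bodies overlapped in 125 pairs and the exons in 88. The sources used here do not give whether the counting used strand or included introns, so reads of an antisense gene and of its partner cannot be told apart with certainty where they overlap.

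The layouts differ in the sequence around the start of the antisense gene. The RefSeq promoter table (build GRCm38.p6, 250 bases before to 50 after a start) held 88 of the 150 genes. A GC box (GGGCGG on either strand), a short motif bound by Sp-family factors, stood in 19 of 31 windows of the pairs with neighbouring starts (61.3%), in 2 of 31 windows of antisense genes inside their partner (6.45%) and in 35.7% of all 32851 windows in the table. The CCAAT box (CCAAT on either strand) stood in 38.7%, 25.8% and 37.4% of the same sets. Median GC content was 62.7%, 49.0% and 52.7%, and the median number of CpG dinucleotides 23, 4 and 7. The windows below show the contrast, 5′ to 3′ on the strand of the antisense gene, with GC and CCAAT boxes in capitals. Cep83os and Mkln1os start next to genes for a centriole protein and for muskelin, and Junos next to the immediate early gene Jun. Far1os lies inside Far1, which makes fatty alcohols for ether lipids. The windows are chr10:94688564-94688863 (minus strand) for Cep83os, chr6:31398724-31399023 (minus) for Mkln1os, chr4:95052067-95052366 (plus) for Junos and chr7:113564938-113565237 (minus) for Far1os.
Cep83os: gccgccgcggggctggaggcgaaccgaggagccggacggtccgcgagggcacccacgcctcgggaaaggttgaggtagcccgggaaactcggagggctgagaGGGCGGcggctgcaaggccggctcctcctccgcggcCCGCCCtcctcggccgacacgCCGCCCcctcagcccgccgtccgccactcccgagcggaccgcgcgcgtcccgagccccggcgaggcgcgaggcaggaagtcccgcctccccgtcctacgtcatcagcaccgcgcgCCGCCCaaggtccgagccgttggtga
Mkln1os: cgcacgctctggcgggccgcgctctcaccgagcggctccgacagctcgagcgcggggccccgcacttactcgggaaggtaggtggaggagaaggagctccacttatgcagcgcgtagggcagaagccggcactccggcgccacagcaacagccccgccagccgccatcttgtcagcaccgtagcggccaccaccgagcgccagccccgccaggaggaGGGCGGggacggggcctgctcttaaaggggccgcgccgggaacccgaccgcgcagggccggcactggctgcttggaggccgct
Junos: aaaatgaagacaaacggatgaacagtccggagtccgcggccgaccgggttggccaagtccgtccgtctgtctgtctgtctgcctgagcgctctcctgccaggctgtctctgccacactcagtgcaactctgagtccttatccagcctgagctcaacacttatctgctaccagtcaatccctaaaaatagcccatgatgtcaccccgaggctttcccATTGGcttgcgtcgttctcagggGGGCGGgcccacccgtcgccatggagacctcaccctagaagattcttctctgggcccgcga
Far1os: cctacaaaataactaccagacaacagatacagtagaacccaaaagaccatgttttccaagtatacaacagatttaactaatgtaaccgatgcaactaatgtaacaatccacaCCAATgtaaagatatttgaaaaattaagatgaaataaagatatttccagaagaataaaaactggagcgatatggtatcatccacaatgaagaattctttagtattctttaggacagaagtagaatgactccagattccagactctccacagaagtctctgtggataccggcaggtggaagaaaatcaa
Cep83os had 4 GC boxes, 76.7% GC and 46 CpG dinucleotides. Mkln1os had 72.7% GC and 35 CpG, Junos 58% and 17, and Far1os 35%, 3 CpG and no GC box. The RefSeq start of Junos lies 783 bases from its GENCODE start and that of Cep83os 37, while the starts of the other two are the same in both. The nearest RefSeq start was taken without a limit. The distance reached 70701 bases among antisense genes inside their partner, and 783 among pairs with neighbouring starts. Some windows of the former set thus lie far from the GENCODE start. A match is a match of letters, and binding was not measured.

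The libraries held 7203 to 11514 barcodes and 64158446 to 91676884 UMIs, and 6508 to 10213 nuclei each were kept. The median depth of a kept nucleus was 6457 UMIs in unexercised and 7417.5 in exercised WT, and 5121.5 in unexercised and 6180 in exercised APPNL-G-F, and any 2 libraries shared 20 to 42 barcodes. Nuclei were clustered without the antisense genes and their partners, and 7 classes were compared, each named as being like a cell type: granule neurons of the dentate gyrus, pyramidal neurons of CA1 and of CA3, inhibitory neurons, and the glial classes oligodendrocytes, microglia and astrocytes. Levels are UMIs per 1000000 UMIs of the class (CPM). Markers of other types were counted in the classes. In microglia the 8 inhibitory markers summed to 1526 to 2367 CPM per library and in oligodendrocytes to 1585 to 2239, against 11790 to 16232 in inhibitory neurons. The same markers summed to 54 to 289 CPM in CA1 neurons and to 110 to 241 in CA3 neurons. Whether such counts were carried over from other cells was not tested. Most granule nuclei came from cluster 7 in both WT libraries, from cluster 9 in APPNL-G-F without exercise and from cluster 6 in APPNL-G-F with exercise. Most oligodendrocytes came from clusters 4, 4, 27 and 5, and most CA1 nuclei from clusters 1, 1, 1 and 11, in that order of libraries. Astrocytes were few in the knock-in, with 63 nuclei without and 109 with exercise.

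Together the 150 genes took 0.149%, 0.160%, 0.205% and 0.112% of the UMIs of kept nuclei in WT without exercise, WT with exercise, APPNL-G-F without exercise and APPNL-G-F with exercise. Cdr1os alone gave 24.6% to 33.2% of these UMIs. Over all kept nuclei it stood at 477, 525, 504 and 373 CPM in that order, and its class means were 471 to 492 in the 4 neuron classes, 410 in microglia, 151 in oligodendrocytes and 141 in astrocytes.

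Some antisense genes were tied to 1 cell class. Of 148 with at least 50 UMIs in the 7 classes, 39 had their highest CPM in the same class in each of the 4 libraries (26.4%). Over all 18033 genes with that many UMIs, 32.7% did so, so the antisense genes were marked no more often than genes at large. Of 129 measured partners, 68 were. The 39 fell into inhibitory neurons (10, background 4.66% of all genes), oligodendrocytes (8, 7.84%), granule neurons (5, 3.90%), microglia (5, 3.75%), CA3 neurons (4, 2.33%), astrocytes (4, 7.81%) and CA1 neurons (3, 2.37%).

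**Figure D1:**
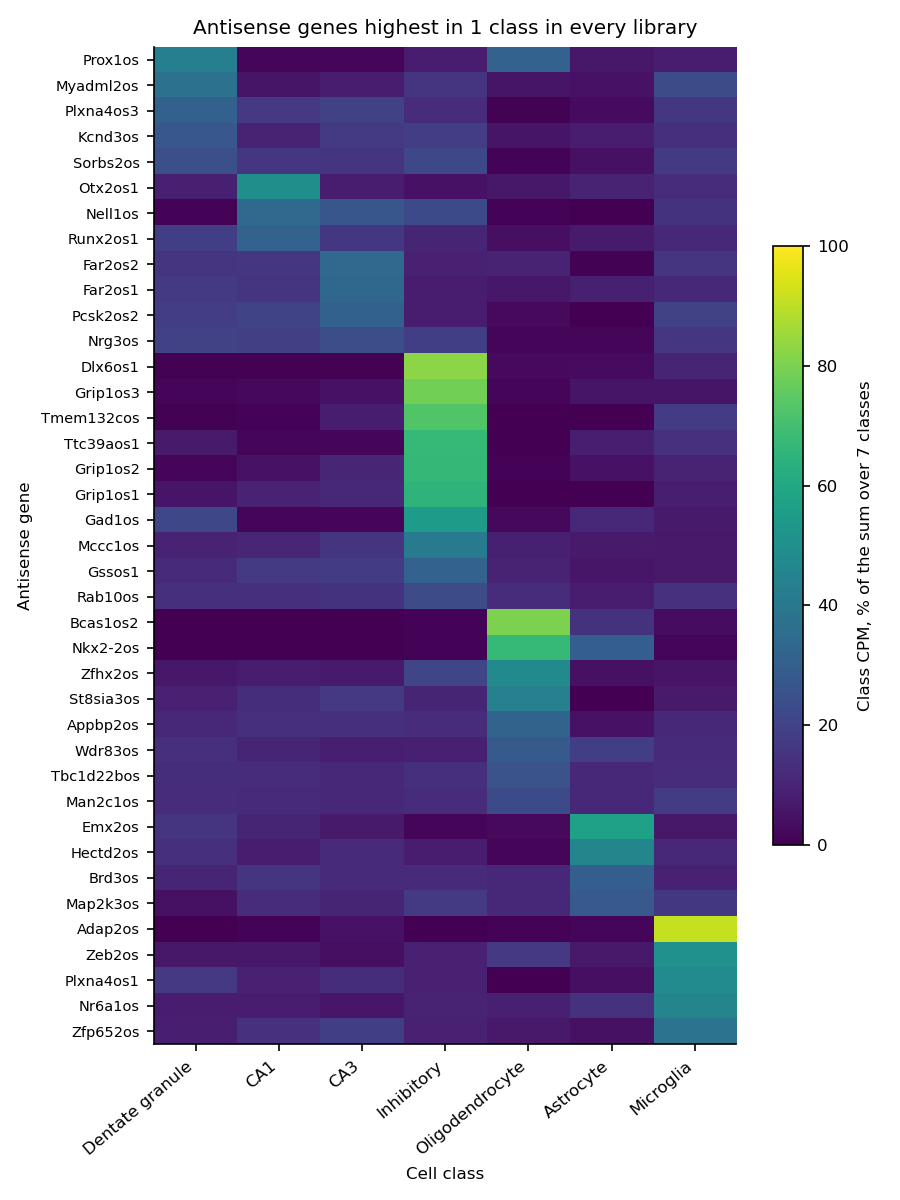
Mean class CPM over the 4 libraries of the 39 antisense genes that were highest in the same class in every library, as a percentage of the gene's sum over the 7 classes (colour, 0 to 100). Rows are genes in the order of their highest class and columns are classes. Dlx6os1, Grip1os3, Bcas1os2 and Adap2os have most of their sum in 1 class, whereas Nrg3os and Sorbs2os are spread over all neuron classes.

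In inhibitory neurons, Dlx6os1 was the most abundant of the marked genes. It lies at Dlx6, a homeobox gene of forebrain GABA neurons, and its annotated body contains Dlx6 whole (chr6:6820189-6871592). Dlx6os1 stood at 351, 321, 342 and 358 CPM in the 4 libraries, in the order used above, and its next class mean was 42.6 in microglia, so it was 8.05-fold higher in inhibitory neurons. No library overlapped between these classes, and Dlx6 had the same highest class (mean 6.62 CPM). Grip1os3, Grip1os2 and Grip1os1 all lie at Grip1, which scaffolds AMPA receptors at synapses. Their inhibitory means of 35.05, 30.95 and 7.80 CPM were 13.5-, 6.27- and 5.77-fold above the next class. Grip1 itself was highest there as well, at a mean of 5203 CPM. Rab10os, by contrast, was highest in inhibitory neurons (49.7, 35.5, 46.6 and 40.6 CPM) while Rab10, a GTPase of vesicle transport, was highest in oligodendrocytes.

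In granule neurons, Prox1os stood at 76.6, 66.1, 59.8 and 62.2 CPM. It starts 418 bases from Prox1, the homeobox gene that sets granule cell identity. The second class was oligodendrocytes at 51.1, 44.1, 41.3 and 57.3 CPM, below granule neurons in each library, while CA1 and CA3 had means of 1.81 and 2.63. Prox1 followed the same order, with means of 243 in granule neurons and 162 in oligodendrocytes. The 9 granule markers, Prox1 not among them, summed to 4491 to 5649 CPM in granule neurons and to 3086 to 4522 in oligodendrocytes, none at 0, and their part in the oligodendrocyte values was not tested. Plxna4os3 (21.4 CPM), Myadml2os (9.44) and Kcnd3os (6.10) were 1.5- to 1.61-fold above their next class, and Sorbs2os (34.4) 1.12-fold.

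Otx2os1 had a mean of 4.52 CPM in CA1 neurons against 1.15 in microglia, and its partner Otx2, a homeobox gene, had too few UMIs to be placed. Runx2os1 and Nell1os were highest in CA1 neurons together with Runx2 and Nell1, at means of 18.1 and 12.8 CPM and 1.69- and 1.28-fold above the next class. In CA3 neurons Far2os1 had 18.1, 12.7, 21.3 and 17.1 CPM and Far2os2 14.5, 16.1, 13.4 and 13.7. The next class means were 8.74 in granule neurons for Far2os1 and 6.63 in CA1 neurons for Far2os2. Far2, a relative of Far1, peaked elsewhere: its mean was 101 CPM in CA1 neurons and 37.5 in CA3 neurons.

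Among glia, Emx2os marked astrocytes with 146, 154, 114 and 114 CPM against a mean of 34.7 in granule neurons. It starts 263 bases from Emx2, which patterns the cortex and hippocampus, and Emx2 had the same highest class (38.4 CPM). Hectd2os was highest in astrocytes too (37.0, 39.8, 24.5 and 68.0 CPM), yet the 24.5 rests on 3 UMIs, and Hectd2, a ubiquitin ligase gene, was highest in granule neurons. Bcas1os2 lies inside Bcas1, a gene of early myelinating oligodendrocytes, and had 31.7, 31.9, 20.4 and 13.7 CPM in oligodendrocytes, 5.53-fold above the next class by its mean. Adap2os lies inside Adap2, and both marked microglia: Adap2os had 59.0, 18.2, 42.4 and 21.3 CPM there and a mean of 1.92 in CA3 neurons. Nr6a1os was highest in microglia (68.8, 60.2, 56.9 and 43.2 CPM) and Zeb2os likewise (12.6, 9.80, 35.1 and 14.6), while Nr6a1 and Zeb2, both transcription factor genes, were highest in inhibitory neurons and oligodendrocytes.

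Antisense gene and partner shared their highest class in 64 of the 142 pairs in which both had at least 50 UMIs (45.1%), and in 21 of the 30 pairs in which both were marked. The share among unrelated pairs of genes was not computed. These counts thus do not show whether the pairs were more alike than genes at large. The layout went with how alike the pair was. Over the 7 class means, the median Spearman rho was 0.82 for 61 antisense genes inside their partner and 0.29 for 43 pairs with neighbouring starts, of which 14 were negative. It was 0.86 for the 10 pairs with overlapping 5′ parts, 0.45 for the 16 with overlapping 3′ ends, 0.32 for the 5 with the partner inside and 0.11 for the 7 with no overlap. These are descriptions over 7 points that share libraries and depth. Plxna4os3, Macrod2os1, Prkag2os1 and Pcsk2os1 reached 1. Atad3aos had the lowest value (−0.96), followed by Zbtb11os1 (−0.68).

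**Figure D2:**
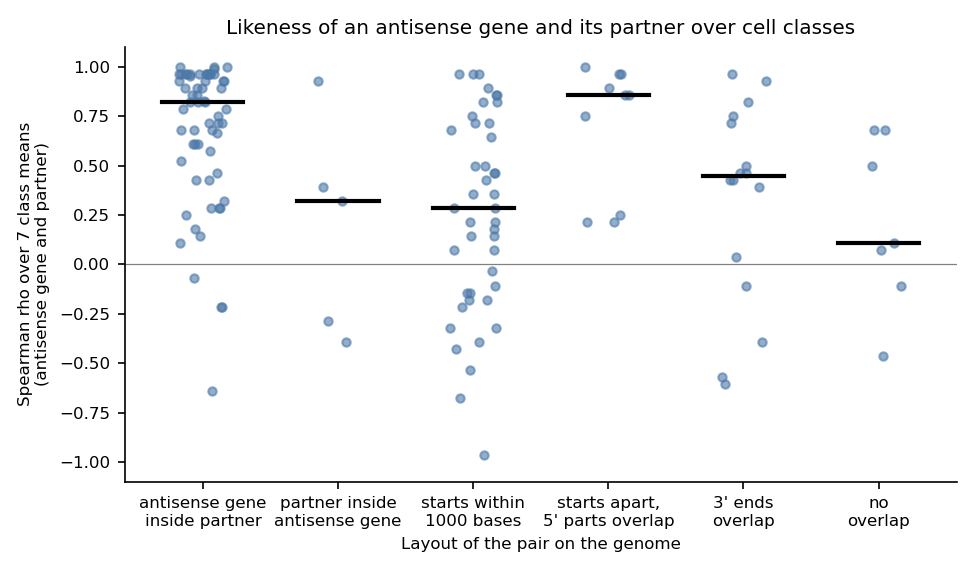
Spearman rho between the 7 class means of an antisense gene and of its partner (vertical axis), by the layout of the pair on the genome. Points are pairs and black lines are medians, 0.82 for antisense genes inside their partner and 0.29 for pairs with starts within 1000 bases.

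The share of a pair's UMIs that came from the antisense gene shows where the 2 genes part ways. It compares the same 2 genes between classes, so gene length does not enter. In 115 pairs it could be given for at least 2 classes, with at least 30 UMIs of each gene, and the median gap between the highest and the lowest class was 0.64 on the log2 odds scale. The gap passed 1 in 36 pairs and 2 in 16, and in 34 of the 115 no library of the higher class overlapped with one of the lower. The highest and lowest class were picked from these same counts, which by itself widens the gap and favours libraries that do not overlap. The same counts were not made for other pairs of genes.

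Tspan2os had the widest gap. Tspan2 is a tetraspanin of myelinating cells, and its antisense gene took 11.9% of the pair's UMIs in inhibitory neurons (95% Clopper-Pearson interval 9.64 to 14.4) and 0.561% in oligodendrocytes (0.379 to 0.80). Tspan2os had 4.28, 4.26, 3.93 and 2.68 CPM in inhibitory neurons and 2.47, 1.52, 4.99 and 2.33 in oligodendrocytes, so its own level overlapped between the classes. The mean of Tspan2 was 28.1 CPM in the former and 494 in the latter. The gap thus went with the level of Tspan2.

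Zfhx2os and Hectd2os showed the reverse, with an antisense gene that was high where its partner was not. Zfhx2os, against the homeobox gene Zfhx2, took 52.4% (48.9 to 55.8) in oligodendrocytes, 26.6% in inhibitory neurons and 8.39% (7.60 to 9.23) in granule neurons. Hectd2os took 42.7% (36.1 to 49.4) in astrocytes and 6.21% (5.77 to 6.66) in granule neurons. In both pairs every library of the high class lay above every library of the low class. By library, Hectd2os ranged from 25% to 49.1% in astrocytes and from 2.47% to 10.8% in granule neurons. Zfhx2os and Hectd2os both run into the 3′ end of their partner.

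Epb41l4aos took 41.4% in CA1 neurons and 3.42% in inhibitory neurons, where its partner Epb41l4a, a FERM-domain gene, had a mean of 86.8 CPM against 4.11 in CA1. Adap2os took 71.0% (61.5 to 79.4) in CA3 neurons, from only 76 antisense and 31 partner UMIs, and 12.4% (10.4 to 14.6) in microglia. Zeb2os took 1.43% (1.11 to 1.81) in microglia and 0.152% to 0.285% in the neuron classes and oligodendrocytes. Junos took 73.3% (70.9 to 75.7) in CA1 neurons, 53.4% in granule neurons and 22.5% (18.5 to 26.9) in oligodendrocytes. These values pool the 4 libraries, and single libraries spread further. Zeb2os ranged from 0.747% to 2.99% in microglia and Junos from 7.08% to 42.4% in oligodendrocytes. Epb41l4aos ranged from 22.4% to 63.0% in CA1 neurons and Adap2os from 57.6% to 96.3% in CA3 neurons. In each of these pairs the libraries of the highest class still lay above those of the lowest. Prox1os kept a near level share instead, 19.5% to 24.4% in the 4 neuron classes and oligodendrocytes, although Prox1 differed between these classes from 7.35 to 243 CPM.

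**Figure D3:**
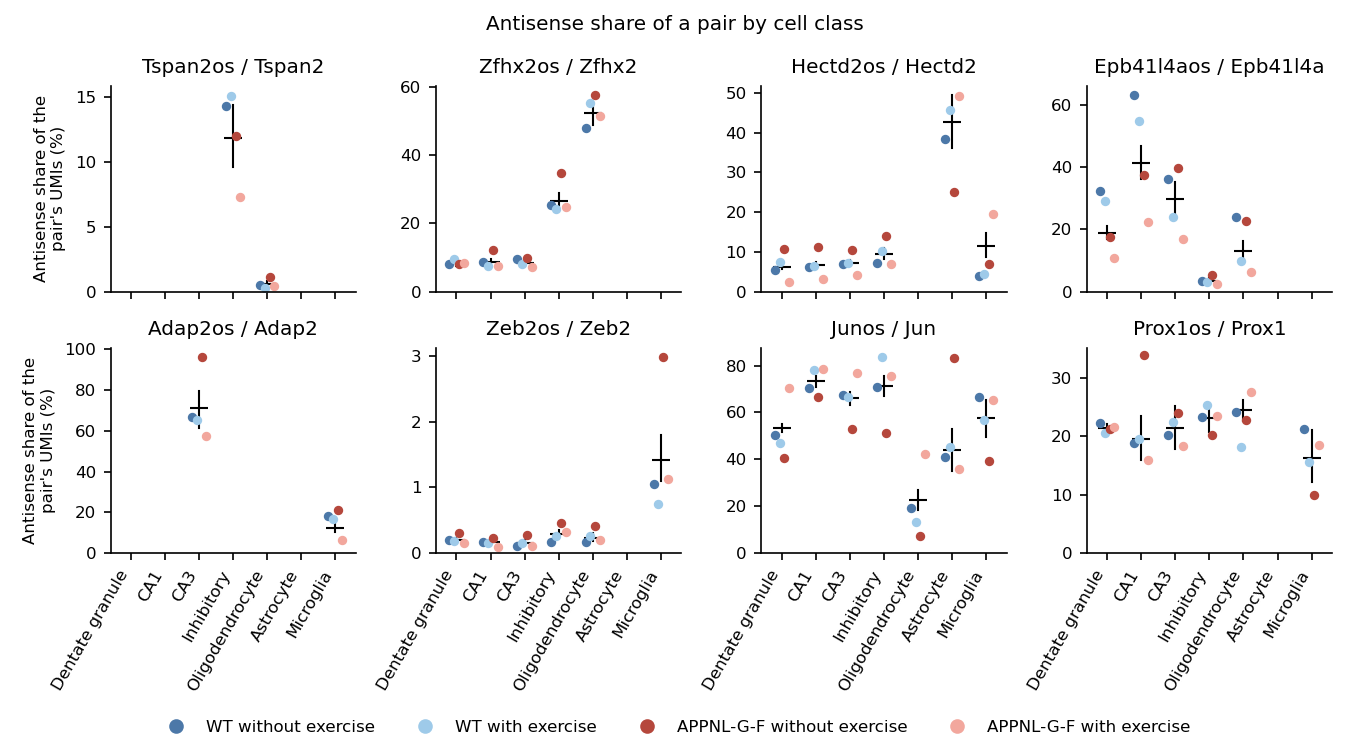
Antisense share of the pair's UMIs (vertical axis, %) in each class (horizontal axis) for 8 pairs. Coloured points are the 4 libraries, horizontal ticks the value over all 4 and vertical lines its 95% Clopper-Pearson interval, drawn only where both genes had at least 30 UMIs. Zfhx2os rises to 52.4% in oligodendrocytes and Hectd2os to 42.7% in astrocytes, and the ticks of Prox1os lie between 16.3% and 24.4%, while its single libraries spread further where UMIs are few.

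Across the 4 groups, the antisense genes differed mainly where a knock-in library was compared, and in opposite directions without and with exercise. A gene was counted as past 2-fold where the CPM of 2 libraries differed at least 2-fold, with a 95% interval of the ratio that left out equality and at least 50 UMIs over both. In granule neurons 89 of the 150 genes had enough UMIs to compare genotypes without exercise: 18 were higher in APPNL-G-F and 0 lower, at a background over all genes of 4.43% higher and 1.13% lower (5.56% either way). In CA1 neurons 14 of 76 were higher and 0 lower (background 4.12% and 1.96%). In CA3 neurons 22 of 69 were higher and 0 lower (4.06% and 3.09%), and in inhibitory neurons 13 of 53 and 0 (4.15% and 1.27%). Median log2 ratios of the antisense genes were 0.41, 0.45, 0.62 and 0.65 in these classes, and those of all genes −0.03, −0.07, −0.12 and −0.05. The partners did not follow, with medians of −0.20 to −0.14 and 0 to 3 of 110 to 112 past 2-fold.

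The largest ratio of this comparison was that of Stamos in granule neurons, Arhgap27os2 in CA1 neurons and Tbc1d22bos in CA3 and inhibitory neurons. Taco1os in inhibitory neurons and Rapgef4os2 and Sox5os2 in CA3 neurons were also past 2-fold higher. Rsf1os1, inside the chromatin remodelling gene Rsf1, was past 2-fold higher in all 4 neuron classes. It stood at 42.0 CPM in APPNL-G-F and 13.9 in WT granule neurons (log2 ratio 1.59, 95% interval 1.38 to 1.81), and at log2 ratios of 1.45, 2.01 and 1.66 in CA1, CA3 and inhibitory neurons. Rsf1 was at 150 and 169 CPM in granule neurons (−0.17). Tbc1d22bos was higher in granule, CA3 and inhibitory neurons (1.70, 2.31 and 2.47), while Tbc1d22b, a TBC-domain gene, had ratios of −0.65, −0.76 and −0.76. Nell1os in CA1 and inhibitory neurons (1.39 and 2.08), Macrod2os1 in CA1 and CA3 (1.31 and 1.72) and Sox5os4 in CA1 and inhibitory neurons (1.31 and 1.49) went the same way, with partner ratios of −0.23 to 0.05. Stamos (2.48), Mettl5os (2.15) and Smc2os (1.68) were the others in granule neurons, each on 11 to 34 UMIs in WT. In oligodendrocytes 25 genes could be compared and 3 passed, Rsf1os1 (1.21), Wdr83os (1.04) and Zmiz1os1 (−1.08), at a background of 8.85%.

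With exercise, the antisense genes were lower in the knock-in. In granule neurons 22 of 76 were past 2-fold lower in APPNL-G-F (background 3.64%) and 3 higher (6.78%, either way 10.4%), with a median of −0.46 against 0.20 over all genes. In CA1 neurons 23 of 68 were lower and 4 higher (background 2.78% and 9.31%), in CA3 14 of 60 and 3 (2.50% and 7.45%), and in inhibitory neurons 16 of 45 and 0 (2.33% and 6.73%). Nrg3os, inside the neuregulin gene Nrg3, stood at 39.5 CPM in APPNL-G-F and 201 in WT granule neurons (−2.35, −2.46 to −2.23) and at −2.29, −2.19 and −2.20 in the other neuron classes. Its partner moved less, at −0.68 in granule neurons. Chn1os3 (−2.66), Macrod2os1 (−2.52) and Far1os (−2.23) were lower as well in granule neurons, Bcas3os1 (−2.34) and Grip1os2 (−2.57) in CA3, and Rapgef4os1 (−2.41) in inhibitory neurons. Dlx6os1 went the other way in granule neurons, with 7.59 against 1.23 CPM (2.62), and in CA1 neurons (2.15) and oligodendrocytes (1.77), where 5 of 22 genes passed in either direction (background 14.7%). The 8 inhibitory markers summed to 2054 CPM in granule neurons of APPNL-G-F with exercise and to 1683 in WT with exercise, and to 289 and 102 in CA1, and their part in the Dlx6os1 values was not tested.

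Few antisense genes differed between WT with and without exercise. In granule neurons 3 of 82 passed, at a background of 1.28%: Mettl5os was higher (4.13 against 1.74 CPM, 1.24), and Rptoros (−1.05) and Arf4os (−1.02) were lower, each on 14 UMIs with exercise. CA1, CA3 and inhibitory neurons had 1 of 73, 3 of 66 and 2 of 48, at backgrounds of 1.59%, 1.94% and 2.05%. Prox1os was higher in CA3 neurons (1.47) and so was Prox1 (1.27). In microglia 1 of 8 passed (background 9.13%): Adap2os (18.2 against 59.0 CPM, −1.70) and Adap2 (91.0 against 261 CPM, −1.52) were lower together. The 11 microglia markers there summed to 1503 against 3692 CPM, with 60 and 156 nuclei. The median depth of these nuclei was 8632.5 UMIs with and 1751 without exercise. The part of marker levels and of depth in that difference was not tested.

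Exercise in APPNL-G-F had the widest spread. In granule neurons 42 of 83 antisense genes were past 2-fold lower with exercise (background 10.9%) and 4 higher (8.72%, either way 19.6%), with a median of −1.001 against 0.09 over all genes. In CA1 neurons 30 of 69 were lower and 7 higher (background 8.10% and 11.4%), in CA3 26 of 62 and 0 (7.66% and 11.5%), and in inhibitory neurons 25 of 50 and 2 (8.80% and 8.89%). Partner medians were 0.24 to 0.30, and in granule neurons antisense gene and partner moved in the same direction in 34 of 78 pairs. This comparison shares the library of APPNL-G-F without exercise with that of the genotypes without exercise, and the library of APPNL-G-F with exercise with that of the genotypes with exercise, so the values are not independent of those above.

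Rsf1os1 was at 3.42 CPM with and 42.0 without exercise in granule neurons (−3.62, −4.01 to −3.25), while Rsf1 was at 145 and 150 (−0.05). Nrg3os was at 39.5 and 357 CPM there (−3.18, −3.29 to −3.07), Far1os at 2.96 and 29.2 (−3.30) and Rapgef4os1 at 8.54 and 53.7 (−2.65), against partner ratios of −0.36, −0.11 and 0.50. All 4 were lower in CA1 neurons as well, at −3.33, −3.42, −3.49 and −2.94. Sox5os2 stood at −4.50 in CA3 neurons, from 4 UMIs with exercise, and at −4.86 (−7.94 to −2.93) in inhibitory neurons, from 2. In oligodendrocytes 5 of 28 were lower and 4 higher (background of either 26.5%). Rsf1os1 (−2.89), Far1os (−2.94), Ube4bos1 (−3.22) and the protein-coding Wdr83os (−2.68) were among the lower ones, and Junos was higher (1.84) while Jun was lower (−1.43). In microglia 4 of 18 were lower (background 4.67%): Nrg3os (−3.54), Dtnbos (−1.54), Zeb2os (−1.26) and Rapgef4os1 (−4.90, −7.22 to −3.26, from 3 UMIs with exercise). Neuron markers were counted in the microglia class too, and the mean of Nrg3 there was 4576 CPM against 1117 in astrocytes. The part of neuronal RNA in these values was not tested, so they may not be those of microglia alone.

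The antisense share of a pair, taken over the 4 neuron classes, puts the 4 libraries side by side. In 147 pairs with at least 50 antisense UMIs, the share was highest in APPNL-G-F without exercise in 102 and lowest in APPNL-G-F with exercise in 99, with both in 81. The WT libraries were highest in 11 and 16 pairs, without and with exercise. Nrg3os took 2.88% of the pair's UMIs in WT without exercise (95% Clopper-Pearson interval 2.82 to 2.93), 2.89% in WT with exercise (2.83 to 2.96), 6.56% in APPNL-G-F without exercise (6.46 to 6.67) and 1.003% in APPNL-G-F with exercise (0.958 to 1.05). The WT libraries overlapped within counting error, and the knock-in libraries lay on either side of them.

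The same order held for Rsf1os1 with shares of 7.57%, 6.53%, 22.2% and 2.49%, in the order of the libraries used above. For Far1os the shares were 9.89%, 11.2%, 21.3% and 3.03%. Rapgef4os1, inside a gene for a cAMP-sensing exchange factor, had 7.16%, 7.75%, 13.02% and 1.65%. All of these genes lie whole inside their partner, as do Sorbs2os (3.75%, 4.44%, 7.03% and 1.34%), Dtnbos (11.1%, 11.7%, 22.0% and 4.595%) and Grip1os2 (0.457%, 0.640%, 1.12% and 0.133%). In each, the knock-in library without exercise was above both WT libraries and the knock-in library with exercise below them.

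Other pairs did not change in this way. Prox1os took 22.3%, 20.8%, 21.4% and 21.4%, with overlapping intervals. Zmiz1os1, next to the transcriptional co-regulator gene Zmiz1, took 36.2%, 37.7%, 39.4% and 38.1%. Its own level was nonetheless higher in granule neurons of APPNL-G-F with exercise (61.7 CPM against 26.6 to 34.2 in the other libraries), so gene and partner differed together. Ino80dos took 35.9%, 38.1%, 40.6% and 37.0%, and Dlx6os1 97.6% to 98.2%. Junos had the opposite order, with 59.0%, 59.3%, 48.5% and 73.4%, and Grip1os3, whose 5′ part overlaps that of Grip1, had 0.465%, 0.376%, 0.809% and 0.457%.

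**Figure D4:**
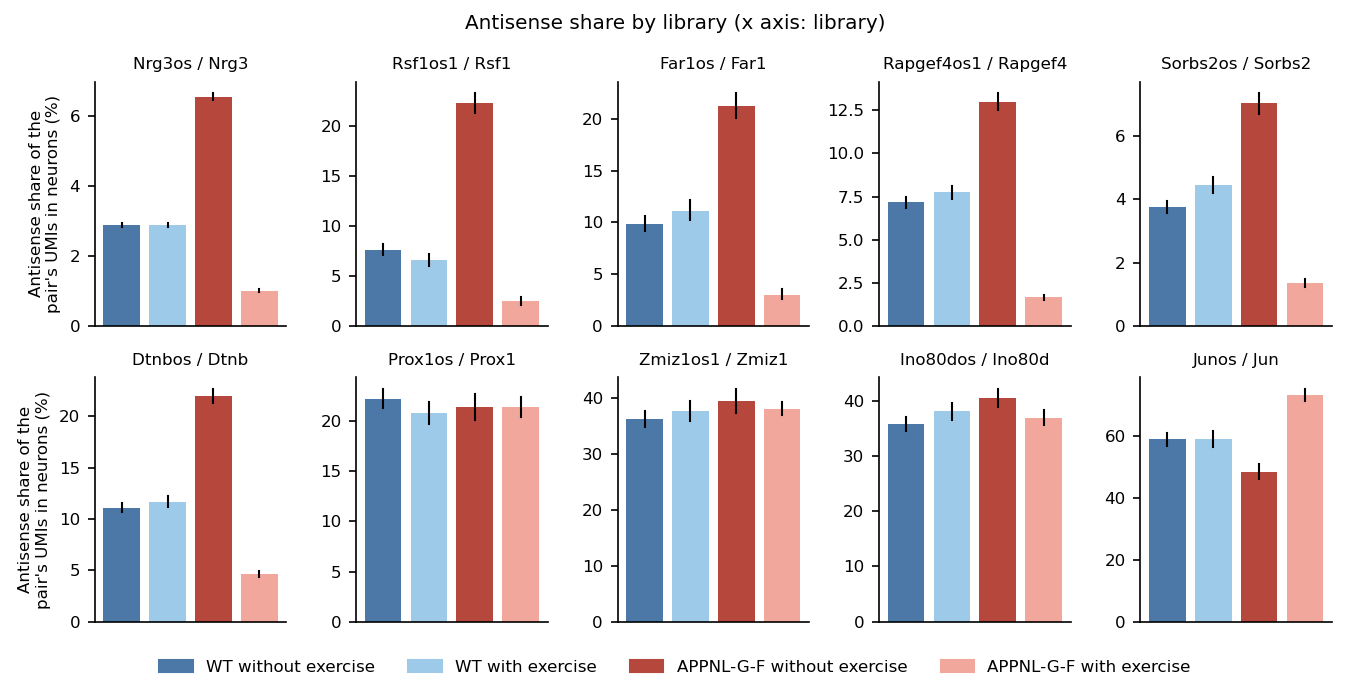
Antisense share of the pair's UMIs over the 4 neuron classes (vertical axis, %, from 0) in each library (bars) for 10 pairs, with 95% Clopper-Pearson intervals of counting error (lines). In the first 6 pairs, all with the antisense gene inside its partner, the bar of APPNL-G-F without exercise is the tallest and that of APPNL-G-F with exercise the shortest, and for Junos the order is reversed.

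The layouts differed here as well. Of 60 antisense genes that lay inside their partner, 48 had their highest share in APPNL-G-F without exercise and their lowest in APPNL-G-F with exercise. That was so in 12 of 16 pairs with overlapping 3′ ends, 15 of 44 with neighbouring starts, 2 of 12 with overlapping 5′ parts further apart, 3 of 8 with no overlap and 1 of 7 in which the partner lay inside. From without to with exercise in APPNL-G-F, the median change over pairs with both genes counted in both libraries was, on the log2 odds scale, −2.02 for antisense genes inside their partner (below 0 in 56 of 60), −1.22 for overlapping 3′ ends, −0.69 for neighbouring starts and 0.01 where the partner lay inside. Exercise in WT gave medians of 0.19, 0.07, 0.26 and −0.35 for the same layouts. No test of the difference between layouts was made.

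**Figure D5:**
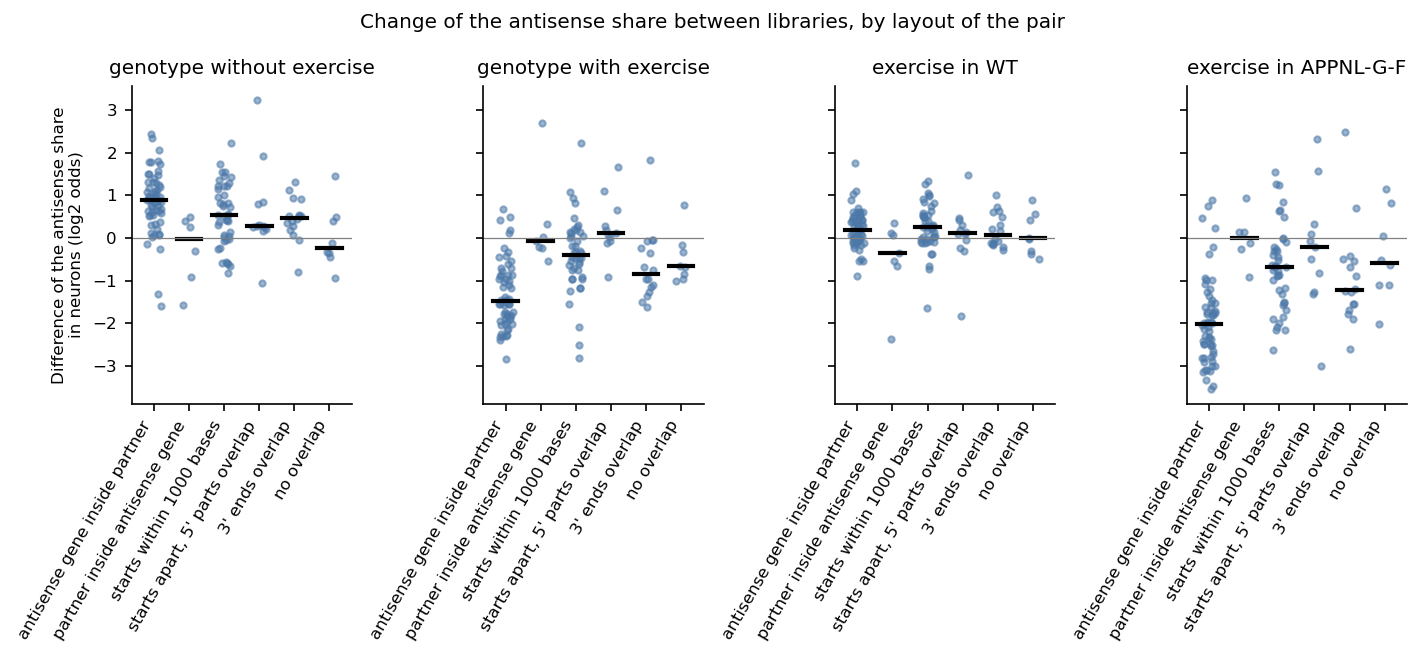
Difference of the antisense share in neurons between 2 libraries (vertical axis, log2 odds, first minus second: APPNL-G-F minus WT, or with minus without exercise) by the layout of the pair (horizontal axis), 1 panel per comparison. Points are pairs with at least 50 antisense UMIs and black lines medians. For antisense genes inside their partner the medians are 0.88, −1.48, 0.19 and −2.02 from left to right.

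The CPM ratios of annotated antisense genes outside the named set went the same way. Shares of pairs and layouts were not computed for them. In granule neurons, 308 of 563 other genes of the antisense biotype were past 2-fold lower with exercise in APPNL-G-F, with a median of −1.18, while 914 of 11766 other protein-coding genes were lower, with a median of 0.13. For the genotypes without exercise, 112 of 590 of these antisense genes were higher, with a median of 0.50. For the genotypes with exercise 219 of 542 were lower, with a median of −0.64. The backgrounds over all genes in granule neurons were 10.9% lower for exercise in APPNL-G-F, 4.43% higher for the genotypes without exercise and 3.64% lower with exercise. The differences in level were thus not particular to the genes with an "os" symbol. Other noncoding biotypes are not described here, so these values do not set antisense genes apart from noncoding genes at large.

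Several measures of the libraries moved with these values. APPNL-G-F without exercise had the lowest median depth in granule neurons, 4588 UMIs per nucleus against 6175 to 6767. With each nucleus thinned to 1500 UMIs, the median of the antisense genes in granule neurons was 0.57 for the genotypes without exercise (38 genes) and −0.78 for exercise in APPNL-G-F (38 genes), and the other members had too few UMIs left to compare. In granule neurons the 6 choroid plexus markers summed to 79.1 CPM in that library and to 27.8 to 38.1 in the others, with at most 1 marker at 0. The 5 red blood cell markers summed to 17.7 CPM there against 3.12 to 7.18, and the 11 microglia markers to 71.5 against 37.4 to 45.9, with none at 0. The part of these in the antisense values was not tested. With 1 library per group, a difference between groups and a difference between library preparations cannot be told apart.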

How the data were processed

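Single-nucleus libraries of 4 groups (1 library each, numbered replicate 1) were analysed from gene by barcode matrices. The authors deposited raw UMI counts per gene and barcode. Per the submitters' processing notes, Cell Ranger 3.1.0 and the mm10 build were used, while the file headers name version 5.0.1. The use of introns and of strand in counting is not given in the sources read here.

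A nucleus was kept if it had 500 or more genes, 1000 or more UMIs and a mitochondrial share below 5%. Doublets were scored against simulated doublets, and the highest 0.8% per 1000 nuclei were left out (5.50% to 8.98% per library). The 2000 most variable genes, without the antisense genes and their partners, gave 30 principal components, 15 neighbours and Leiden clusters (resolution 1.0, scanpy 1.11.5). Clusters were named from marker lists of 19 cell types, needing at least 3 markers, and others stayed unnamed. Names rebuilt in this way may differ from the study's.

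UMIs were summed per class and library and given per 1000000 UMIs. Intervals are 95% exact Poisson, Clopper-Pearson or conditional binomial (scipy 1.17.1) and cover counting error only. The computation was tested on simulated data. Alternatives covered nucleus filters, doublets, clustering, thinning, the UMI minimum and scaling (TMM from edgeR 4.0.16).

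Genes named are the 20 most abundant members, up to 3 marked genes per class, up to 5 past 2-fold per comparison and class, the 6 widest share gaps, and Rsf1os1, Far1os and Nrg3os. Genes at the UMI minimum and Atad3aos, Zbtb11os1 and Prkag2os1 were named after their values were seen. The members, lists and rules were chosen with earlier results of these data known.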

Additional observations from a re-analysis of the deposited data

Results flagged for a closer look

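Some antisense genes were past 2-fold in opposite directions in the knock-in without and with exercise, each against WT. There were 5 of the 75 measured in both comparisons in granule neurons (6.67%, against 1.26% of all 12742 genes measured in both) and 7 of 62 in CA1 neurons (11.3% against 1.54% of 12146). There were 10 of 57 in CA3 neurons (17.5% against 2% of 11873) and 7 of 43 in inhibitory neurons (16.3% against 1.15% of 10916). All of them were higher without and lower with exercise. Nrg3os, Rsf1os1 and Far1os were among them in all 4 classes. In granule neurons Nrg3os had log2 ratios of 1.12 and −2.35, Rsf1os1 of 1.59 and −1.83, and Far1os of 1.06 and −2.23. Plxna4os3 (1.09 and −1.94) and Hectd2os (1.40 and −1.83) were the other two there. In CA3 neurons Macrod2os1 had 1.72 and −2.10, Grip1os2 1.30 and −2.57, and Sox5os4 1.39 and −2.12.

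For some genes the libraries with and without exercise differed past 2-fold in opposite directions in WT and APPNL-G-F. This was so for 1 of 76 genes in granule neurons (1.32%, against 0.32% of all 12793 genes measured in both). It was so for 1 of 55 in CA3 neurons (1.82% against 0.521% of 11895) and 1 of 45 in inhibitory neurons (2.22% against 0.279% of 11094). There were 0 of 66 in CA1 neurons (0.36% of 12217). These were Mettl5os in granule neurons (1.24 and −1.59), Macrod2os1 in CA3 neurons (1.04 and −2.78) and Nell1os in inhibitory neurons (1.33 and −2.14). With 1 library per group, none of these differences was tested.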

How the results depend on the processing

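Each group had 1 library, so no setting tests a difference between groups. No paired analysis was possible because each group has a single library and no test was made. Thinning nuclei to 1500 UMIs or raising the minimum to 200 UMIs left fewer genes to count. After thinning, 24 of 102 genes were marked for a class (39 of 148 before) and 42 of 96 pairs shared their highest class (64 of 142). The granule neuron counts past 2-fold in either direction were then 18 of 38 for exercise in APPNL-G-F, 0 of 36 for exercise in WT, 10 of 32 for the genotypes with exercise and 7 of 38 without. A minimum of 200 UMIs gave 17 of 36, 0 of 35, 12 of 34 and 7 of 38, and one of 20 UMIs gave 5 of 119 for exercise in WT and 38 of 117 for the genotypes with exercise. The shares over all genes were not computed under the alternatives. These counts and the marked counts thus have no background and do not show whether antisense genes differed from genes at large. Exercise in WT had 1 of 82 when mitochondrial and the 50 highest genes were left out of the total. Chosen after seeing the data, leaving out APPNL-G-F with or without exercise gave 55 and 44 marked genes and 62 and 63 shared classes. A gene then had fewer libraries to match, so apart from the UMI minimum the marked count could not fall. The share over all genes was not computed for this rule either. Median log2 ratios in granule neurons ranged over the alternatives from −1.13 to −0.67 for exercise in APPNL-G-F, 0.09 to 0.24 for exercise in WT, −0.64 to −0.37 for the genotypes with exercise and 0.37 to 0.57 without. Minimums of 20 and 200 UMIs leave each named ratio as it was, so their values could not move. A minimum of 20 UMIs could not undo a call past 2-fold. One of 200 UMIs, or thinning, can undo a call by the number of UMIs alone. Of 994 values of the 91 named ratios under 11 alternatives, these included, 827 were still past 2-fold and 167 no longer were. Of the same values, 945 moved by less than their counting interval, 48 moved further and 1 reversed: Cdr1os in oligodendrocytes, genotypes with exercise, was −0.44 with no doublets left out (1.22 before), and the cause was not tested. Thinning left out 985 oligodendrocyte nuclei of APPNL-G-F without exercise, so depth limits that class most.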
